A study of Mus musculus with 6 samples.

Results

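The genes described here are the Max-centred transcription factor network: Mnt, Max, Myc, Mycn, Mxi1, Mxd1, Mxd3, Mxd4 and Mga. They were taken by symbol from a fixed list of 9, and all 9 were found among the 14526 genes of the deposited table. Messenger RNA was measured by RNA sequencing in NMuMG, an established mouse mammary epithelial line used as a model of epithelial to mesenchymal transition, which TGF-beta starts in it. Both groups received TGF-beta and were taken at day 4. One group of 3 libraries was transfected with small interfering RNA against Mnt (siMnt), and the other group of 3 with a non-targeting control siRNA (siNTC). Per the labels, each well was seeded with 200000 cells, siRNA and TGF-beta were given together 16 hours later, and both were renewed on day 2. Untreated cells were not analysed here, a single cell line was used, and the sources used here do not give the siRNA sequences. The comparison asks what happens to the partners and rivals of Mnt when Mnt itself is lowered in cells under TGF-beta.

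Proteins of this network carry a basic helix-loop-helix leucine zipper and bind DNA as pairs with Max, most often at the E-box CACGTG. Pairs of Max with Myc or its relative Mycn activate transcription of genes for growth, ribosome production and metabolism. Pairs of Max with Mnt or a member of the Mxd family (Mxd1, Mxi1, Mxd3, Mxd4) occupy the same sites and repress, by recruiting Sin3 corepressors with histone deacetylases. Mga, a very large protein, also pairs with Max and belongs to a variant Polycomb repressive complex.

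The libraries held between 22323050 and 42193291 reads assigned to genes, and 12568 genes, all 9 network genes among them, were tested after a filter that asked for a mean of 10 normalised read counts. On the leading principal component (60.8% of the variance) siNTC replicates 1 and 2 lay at -43.0 and -52.3 and the siMnt libraries between 29.4 and 35.5, whereas siNTC replicate 3 lay at -0.81, apart from its group. The luminal keratins Krt8 and Krt18 were abundant in every library (30725 to 41841 and 43433 to 75987 normalised read counts), and 5 of 8 listed luminal markers were in the table. Of 8 listed myeloid and other immune markers 4 were in the table. Their summed level lay between 959 and 1328 in siNTC and between 1996 and 2288 in siMnt. Most of it was Csf1r, which rose (log2 fold change 1.09, adjusted p = 0.0242, limma). Itgam also rose (adjusted p = 0.0493, limma), but from low values, 4.43 to 8.40 in siNTC and 17.9 to 28.1 in siMnt. The macrophage marker Cd68 did not pass (190.5 ± 67.8 in siNTC and 164 ± 45.8 in siMnt, SD, n = 3 each; log2 fold change -0.19, adjusted p = 0.765, limma), and the pan-leukocyte marker Ptprc lay between 1.29 and 6.65 in all libraries. The part of this difference in the results below was not tested. In bulk RNA, fewer cells of a type and less RNA per cell cannot be told apart.

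Of the 9 network genes 1 rose, Mxi1, 0 fell and 8 did not pass, at an adjusted p under 0.05 (limma, with p-values adjusted over all tested genes by Benjamini and Hochberg). Over all tested genes 2.56% rose and 1.37% fell. 3 network genes, Mnt, Mycn and Mxi1, had an unadjusted p under 0.05, which held for 23.4% of all tested genes. In the same 3 the siNTC and siMnt libraries did not overlap, as in 31.5% of all tested genes. In 5 of the 9 the direction was the same in all 3 replicate numbers, against 57.7% of all tested genes. Libraries with the same replicate number deviated together, and with the number as a block in the fit 4 of the 9 passed, Mxi1 and Mycn higher and Mnt and Myc lower. In that fit 15.9% of all tested genes passed, 9.33% higher and 6.56% lower. The same 4 passed without siNTC replicate 3, against 16.0% of all tested genes. That library was the control nearest the siMnt mean for Myc, Mycn and Mxi1, so leaving it out widened their differences. For Mnt the log2 fold change shrank to -0.77. This omission is not read as separate support. The other 5, Max, Mxd1, Mxd3, Mxd4 and Mga, passed in none of the 18 alternative settings. Values below are normalised read counts, and each log2 fold change is the siMnt mean less the siNTC mean of log2(value + 1), with its standard error from limma. With 3 libraries against 3, an exact permutation test on 1 gene cannot go below p = 0.1.

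**Figure D1:**
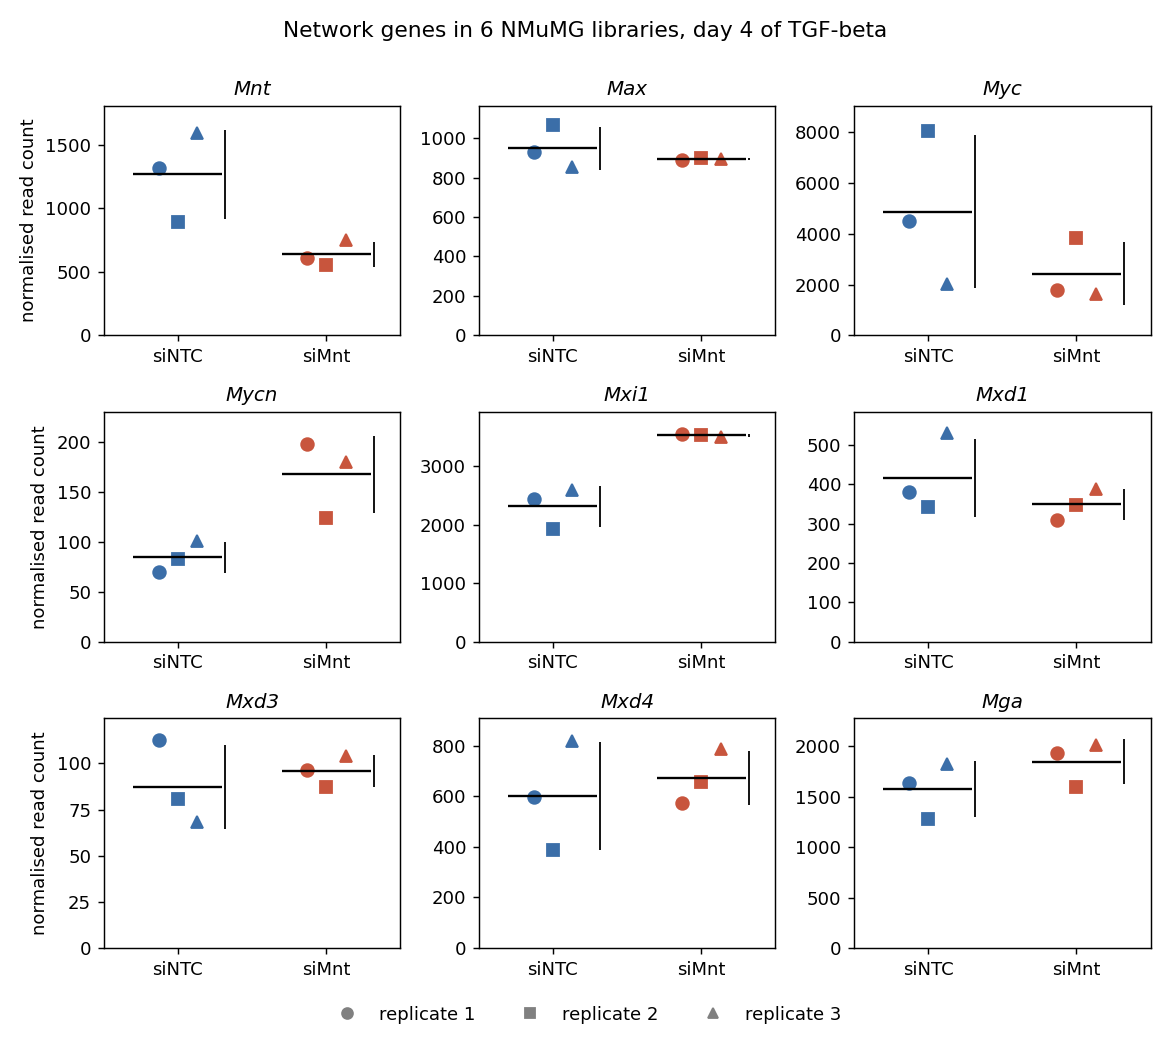
Normalised read counts (y axis, from 0) of the 9 network genes in the 3 siNTC and 3 siMnt libraries (x axis), with symbols for replicate numbers, horizontal bars for group means and vertical bars for ± 1 SD. The groups do not overlap for Mnt, Mycn and Mxi1, and Myc spans 2041 to 8029 within siNTC alone.

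Mnt, a widely expressed repressor and the target of the siRNA, stood in siMnt at 50.4% of the control mean. Mnt stood at 1316, 896 and 1596 in siNTC replicates 1, 2 and 3, and at 613, 557 and 749 in siMnt replicates 1, 2 and 3. Every siMnt library lay below every siNTC library, and the lowest control was replicate 2. Pair by pair, in replicate numbers 1, 2 and 3, that is 46.6%, 62.2% and 46.9%. The log2 fold change was -0.96 ± 0.22 with a 95% confidence interval from -1.47 to -0.45, and the adjusted p of 0.0546 (limma) missed the threshold. With the replicate block it was 0.00442. By size, 7.80% of all tested genes had a larger absolute log2 fold change than the targeted gene.

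The 250 bases before the Mnt start site hold the network's own E-box, as do those of 1 other member, Mxd4, so both are shown with the windows of Mxi1, the gene that rose. The sequences are from RefSeq on GRCm38.p6, 5′ to 3′ on the gene's strand, from 250 to 51 bases before the annotated start, with CACGTG in capitals. Mxi1 has several annotated starts, and the windows of the 2 that lie outside annotated exons are given.
Mnt, chr11:74830674-74830873, plus strand: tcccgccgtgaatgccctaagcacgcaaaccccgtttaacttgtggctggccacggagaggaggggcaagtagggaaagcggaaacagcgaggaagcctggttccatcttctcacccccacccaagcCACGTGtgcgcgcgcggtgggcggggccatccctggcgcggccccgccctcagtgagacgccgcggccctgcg
Mxd4, chr5:34187761-34187960, minus strand: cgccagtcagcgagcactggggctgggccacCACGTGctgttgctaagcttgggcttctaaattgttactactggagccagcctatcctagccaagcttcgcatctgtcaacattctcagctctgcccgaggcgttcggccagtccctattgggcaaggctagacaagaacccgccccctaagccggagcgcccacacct
Mxi1, chr19:53310256-53310455, plus strand: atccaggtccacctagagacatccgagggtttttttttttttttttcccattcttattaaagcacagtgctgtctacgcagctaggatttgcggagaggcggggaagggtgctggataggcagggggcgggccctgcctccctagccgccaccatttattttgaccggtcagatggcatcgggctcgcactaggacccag
Mxi1, chr19:53329163-53329362, plus strand: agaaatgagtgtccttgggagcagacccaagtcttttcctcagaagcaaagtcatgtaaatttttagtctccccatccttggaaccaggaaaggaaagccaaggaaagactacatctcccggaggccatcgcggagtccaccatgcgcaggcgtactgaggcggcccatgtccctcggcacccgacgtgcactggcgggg

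CACGTG reads the same on both strands and was searched in the full 250 bases before each start. Windows were matched for 8 of the 9 genes, all but Myc. The first base of the match lay 123 bases before the start in Mnt and 219 in Mxd4, and the windows of Max, Mycn, Mxi1, Mxd1, Mxd3 and Mga held no match. The motif was in 6.02% of all 32851 windows, and 9.74% of 9926 tested genes had it in at least 1 of their windows. A match describes these letters and is not evidence of binding.

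Among the Mxd repressors, Mxi1 rose and the other members of the family did not pass. Mxi1 was at 2436, 1923 and 2588 in the siNTC libraries and at 3551, 3543 and 3507 in the siMnt libraries. The siMnt values all lay above the highest control. Their SD was 0.658% of their mean, against 15.0% in siNTC. The siMnt libraries held 2862 to 3284 Mxi1 reads. Counting error alone is 2.40% at 1736 reads, the lowest Mxi1 count of any library, so the closeness of the siMnt values is not read as a result. The group means were 2316 ± 348 and 3534 ± 23.3 (SD, n = 3 each), a 1.53-fold rise (log2 fold change 0.62 ± 0.13, adjusted p = 0.0478, limma; 0.0134 with the block). The rise held in each replicate number, at 146%, 184% and 136% of the siNTC value. The call lay close to the threshold. It was lost with a filter at a mean of 50 (adjusted p = 0.0535), without a trend in the variance model (0.0789), and without siNTC replicate 1 (0.148) or siMnt replicate 1, 2 or 3 (0.214, 0.185 and 0.123), all by limma, while the log2 fold change stayed between 0.49 and 0.71 in every single-library omission.

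Mxd1, a repressor known for its rise as cells differentiate, was at 379, 342 and 529 in siNTC and at 310, 347 and 388 in siMnt. The groups overlapped and replicate 3 was highest in both (log2 fold change -0.24 ± 0.20, adjusted p = 0.505, limma). Mxd4, at 597, 389 and 819 in siNTC and 574, 659 and 788 in siMnt, had an E-box in its window but no change that passed (log2 fold change 0.22 ± 0.26, adjusted p = 0.668, limma). Its value was 169% of siNTC within number 2 and 96.2% within numbers 1 and 3, and without siNTC replicate 2 the log2 fold change turned to -0.07. Mxd3, at 113, 80.9 and 68.5 in siNTC and 96.2, 87.1 and 104 in siMnt, was among the least counted members, with 73 to 129 reads per library, and did not pass (log2 fold change 0.16 ± 0.24, adjusted p = 0.738, limma). The 95% confidence intervals of the log2 fold change ran from -0.69 to 0.21 for Mxd1, from -0.40 to 0.72 for Mxd3 and from -0.39 to 0.82 for Mxd4. In the mouse annotation used for lengths, GENCODE M21, short stretches of Mxi1, Mxd3 and Mxd4 exons (2.84%, 4.43% and 6.06% of their bases) overlap genes on the opposite strand (Gm10197, Prelid1 and Gm42846). Without strand information in the sources, reads there cannot be told apart.

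**Figure D2:**
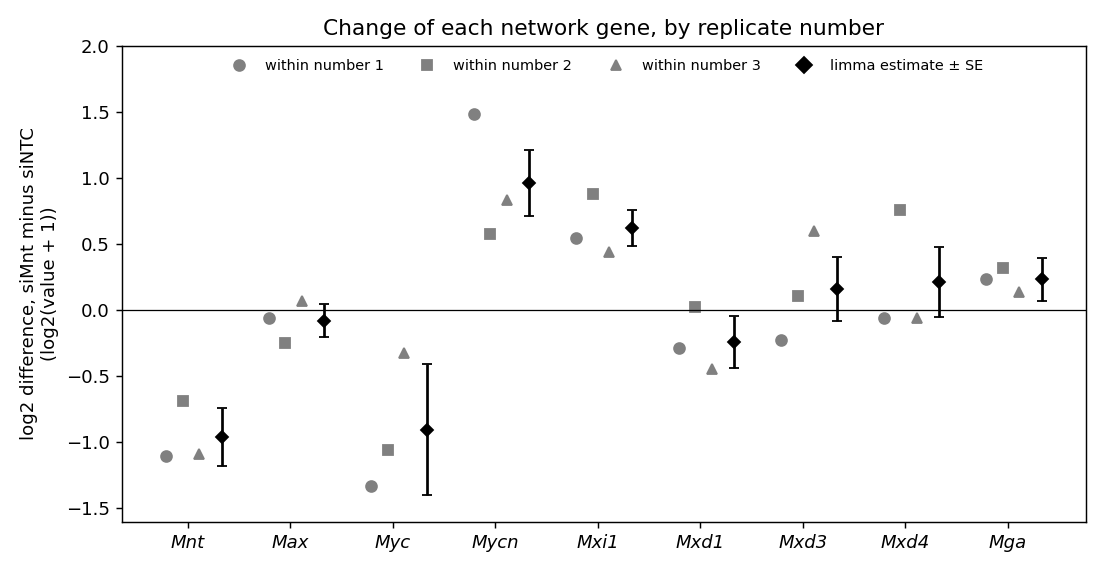
Log2 difference between siMnt and siNTC (y axis, log2(value + 1) scale) for each network gene (x axis), within replicate numbers 1, 2 and 3 (grey symbols) and as the limma estimate with its standard error (black). Mnt and Myc lie below 0 in all 3 numbers, Mycn, Mxi1 and Mga above 0 in all 3, and Max, Mxd1, Mxd3 and Mxd4 lie on both sides. Of all tested genes 57.7% had the same direction in all 3 numbers.

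The activators Myc and Mycn had opposite signs. Myc was at 4508, 8029 and 2041 in siNTC replicates 1, 2 and 3 and at 1796, 3847 and 1631 in the siMnt replicates. The controls differed from each other by up to 3.93-fold and the siMnt libraries by up to 2.36-fold, replicate 2 being highest and replicate 3 lowest in both groups, so the groups overlapped. In numbers 1, 2 and 3 siMnt held 39.8%, 47.9% and 79.9% of the Myc level of its control. Over all libraries Myc had a log2 fold change of -0.90 ± 0.50 and adjusted p = 0.312 (limma), and with the replicate block, which takes out the difference between numbers, it was -0.90 ± 0.18 with adjusted p = 0.0135. Leaving out siNTC replicate 3 gave -1.42 and adjusted p = 0.0414 (limma). Leaving out siNTC replicate 2 instead gave -0.44 and adjusted p = 0.585.

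Mycn, a Myc relative best known from neural and embryonic tissue, was low and stood higher in siMnt. It was at 69.9, 83.1 and 100.8 in siNTC and at 198, 124 and 180.1 in siMnt, so that the groups did not overlap. The means were 84.6 ± 15.5 and 167 ± 38.5 (SD, n = 3 each), and in numbers 1, 2 and 3 the level in siMnt came to 283%, 149% and 179% of its control. The log2 fold change of 0.96 ± 0.25, with a 95% confidence interval from 0.39 to 1.54, had an adjusted p of 0.0701 (limma), or 0.0245 with the block and 0.00982 by DESeq2 on recovered reads. Each library held between 75 and 183 Mycn reads, and at the lowest of these counting error alone is 11.5%.

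Max, the shared partner, was at 928, 1067 and 851 in siNTC and at 890, 899 and 896 in siMnt. The siMnt libraries differed by 0.493% of their mean (SD) and lay inside the range of the controls. Counting error alone is 3.70% at 731 Max reads, the lowest count, in siMnt replicate 3. The closeness of the siMnt values is therefore not read as a result. The log2 fold change was -0.08 ± 0.13 (adjusted p = 0.757, limma), with a 95% confidence interval from -0.37 to 0.21, so that a change of the size seen for Mnt lies outside it. Mga was at 1636, 1276 and 1824 in siNTC and at 1929, 1592 and 2012 in siMnt. It was higher in siMnt within each of the 3 numbers, at 118%, 125% and 110.3% of the siNTC value, but the groups overlapped and it did not pass (log2 fold change 0.23 ± 0.16, adjusted p = 0.433, limma; 0.162 with the block).

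Set against each other per length of transcript, Myc had the highest mean in both groups, and Mxi1 stood above Max in all 3 siMnt libraries and in siNTC replicates 1 and 3. Normalised read counts were divided by the length of the longest coding transcript in GENCODE M21, which may not be the isoform these cells use. In siNTC the level per kilobase was highest for Myc at 2078 ± 1287, followed by Max at 489 ± 56.2, Mxi1 at 459.8 ± 69.2, Mnt at 277 ± 76.7, Mxd4 at 155 ± 55.6, Mga at 113 ± 20.0, Mxd1 at 89.3 ± 21.2, Mxd3 at 65.8 ± 17.2 and Mycn at 31.6 ± 5.80 (SD, n = 3). In that order Max and Mxi1 differed by less than the SD of either, and Mxd4 and Mga by less than the SD of Mxd4 but not of Mga. In siMnt the level per kilobase was 1037 ± 528 for Myc, 702 ± 4.62 for Mxi1, 461 ± 2.27 for Max, 174 ± 27.8 for Mxd4, 139 ± 21.5 for Mnt, 132 ± 16.0 for Mga, 74.7 ± 8.38 for Mxd1, 72.2 ± 6.43 for Mxd3 and 62.6 ± 14.4 for Mycn. Here Mnt and Mga differed by less than the SD of either, as did Mxd1 and Mxd3. Myc and Mxi1 differed by less than the SD of Myc only, and Mxd3 and Mycn by less than the SD of Mycn only.

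The ratio of Mxi1 to Mnt per kilobase was 1.69, 1.96 and 1.48 in siNTC and 5.28, 5.79 and 4.27 in siMnt. These ratios did not overlap between the groups, which follows from Mxi1 lying above and Mnt below every control in each siMnt library. The ratio of Mnt to Myc was 0.149, 0.0568 and 0.398 in siNTC and 0.174, 0.0738 and 0.234 in siMnt, so that it overlapped between groups although Mnt was lower in every siMnt library. Mxi1 made up 60.2%, 61.9% and 57.7% of the summed Mxd family level per kilobase in siNTC and 71.0%, 69.4% and 65.6% in siMnt. The summed Mxd family itself was at 804, 617 and 890.4 in siNTC and at 992, 1014 and 1062 in siMnt, higher in all siMnt libraries. These ratios were formed after the values of the single genes were known, they describe RNA and not protein, and no test is given for them.

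**Figure D3:**
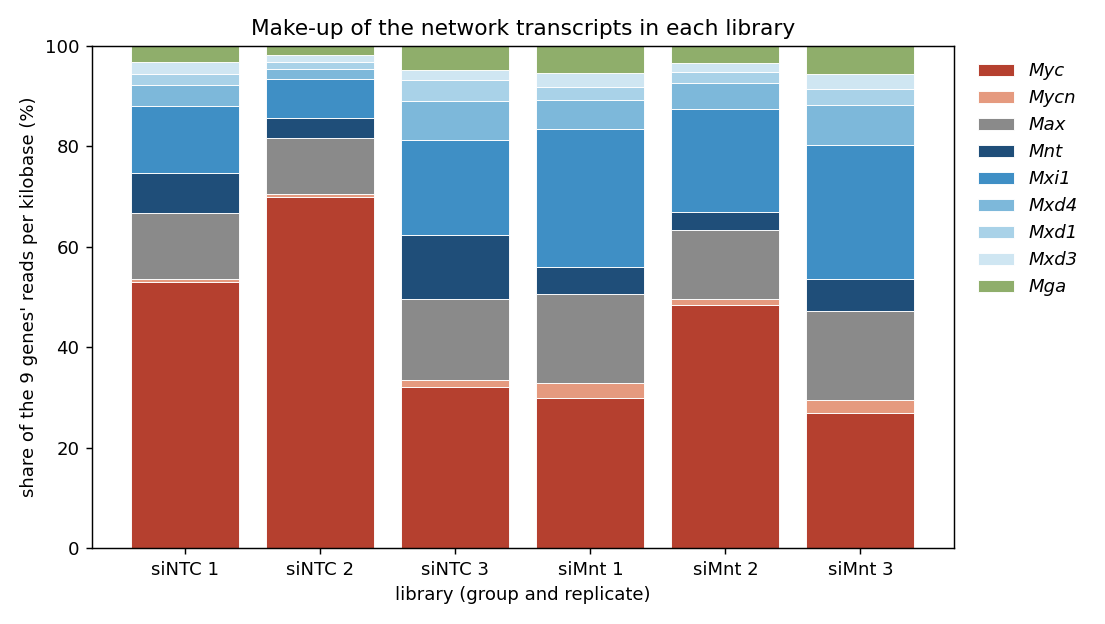
Share of each gene (y axis, percent) in the summed reads per kilobase of the 9 network genes, for each library (x axis). Myc takes between 32.1% and 69.8% in siNTC and between 26.9% and 48.3% in siMnt, and Mxi1 between 7.76% and 18.9% in siNTC and between 20.7% and 27.5% in siMnt.

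The genes outside the network whose profile over the 6 libraries was most like that of Mnt were Padi1, Tmem44, Akap12, Notch4 and Nrep. Likeness was measured as the root mean square difference of the log2(value + 1) values after centring each gene, which was 0.12, 0.16, 0.16, 0.16 and 0.16 for these genes against a median of 0.59 over all tested genes. Padi1, which encodes a peptidylarginine deiminase, was at 720, 600.3 and 977 in siNTC and at 351, 391 and 475 in siMnt. Akap12, a scaffold protein for protein kinase A, was far more abundant, at 43093, 31804 and 40739 in siNTC and 21602, 17835 and 23975 in siMnt. The 5 genes were chosen for following Mnt in these same libraries, so no test is given for them.

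The partners through which the network acts were looked up in 6 lists, chosen with earlier results of these data known. Mnt and Mxd proteins recruit the Sin3 and class I histone deacetylase corepressor. In its list 1 of 17 tested genes fell, Hdac1, 0 rose and 16 did not pass (limma). Over all tested genes 1.37% fell and 2.56% rose. By edgeR and by DESeq2 1 of the 17 passed each, against 3.54% and 11.6% of all tested genes. Hdac1 was at 1455, 1424 and 1469 in siNTC and at 915, 770 and 985 in siMnt. The groups did not overlap, and Hdac1 fell (log2 fold change -0.71 ± 0.13, adjusted p = 0.0321, limma). The call was lost without siNTC replicate 1 (adjusted p = 0.131, limma), when any 1 siMnt library was left out (0.066 to 0.163) and without a variance trend (0.0508), while the log2 fold change stayed between -0.79 and -0.61 in every single-library omission. It held by DESeq2 (adjusted p = 0.00014), by edgeR (0.0332) and with the block (0.0077). The scaffolds Sin3a and Sin3b, named after their values were seen, did not pass, at 0.24 ± 0.13 and -0.06 ± 0.12 on the log2 scale (limma, adjusted p = 0.303 and 0.809). The list median was 0.07, against -0.01 over all tested genes.

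In the Mlx arm, a parallel network of glucose-responsive factors whose hub Mlx also binds Mnt, 0 of 3 tested genes passed by limma, edgeR and DESeq2 called 0 each, and 1 had an unadjusted p under 0.05. Over all tested genes edgeR called 3.54% and DESeq2 11.6%, and 23.4% had an unadjusted p under 0.05 (limma). Mlx was at 582, 799.7 and 672 in siNTC and at 966, 932 and 819 in siMnt. These groups did not overlap, and the adjusted p was 0.161 (limma). Its partner Mlxip was at 2221 ± 732 and 2735 ± 432 (SD, n = 3 each; adjusted p = 0.453, limma).

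Of the Polycomb complex that contains Mga, 0 of 10 tested genes passed by limma, 0 by edgeR and 1 by DESeq2 (11.6% of all tested genes). Of these 10, 3 had an unadjusted p under 0.05 (limma), against 23.4% of all tested genes. The E2F partner Tfdp1 was at 4288 ± 437 and 3108 ± 249 (SD, n = 3 each; log2 fold change -0.46 ± 0.12, adjusted p = 0.0755, limma; 0.0308 with the block), and the chromobox protein Cbx3 at 7217 ± 891 and 6580 ± 305 (adjusted p = 0.588, limma). Of the Myc cofactors 0 of 14 passed by limma, 0 by edgeR and 1 by DESeq2 (11.6% of all tested genes). Of these 14, 2 had an unadjusted p under 0.05 (limma), against 23.4% of all tested genes. The DESeq2 call was Zbtb17, a zinc finger partner of Myc, which was also lower with the block (log2 fold change -0.53; adjusted p = 0.0718 by limma, 0.0286 with the block). The histone acetyltransferase scaffold Trrap, which Myc binds, was at 7087 ± 2041 and 8548 ± 834 (adjusted p = 0.437, limma), and the chromatin reader Bptf at 5157 ± 1248 and 5268 ± 442 (adjusted p = 0.891, limma). Of the genes for Myc protein turnover 0 of 15 passed by limma, 0 by edgeR and 1 by DESeq2 (11.6% of all tested genes). Of these 15, 4 had an unadjusted p under 0.05 (limma), against 23.4% of all tested genes. With the block 3 of the 15 passed, against 15.9% of all tested genes: the phosphatase subunit Ppp2r5a, also the DESeq2 call, was higher, and the ubiquitin ligase Trim32 and the kinase Pim1 were lower (adjusted p = 0.0417, 0.0348 and 0.0165 by limma with the block; 0.0905, 0.11 and 0.244 without it). Zbtb17 and these 3 genes are named after their values were seen. The ubiquitin ligase Huwe1 had adjusted p = 0.669 and the kinase Gsk3b adjusted p = 0.995 (limma). The median log2 fold change was 0.35 in the Mlx arm, -0.11 in the Polycomb complex, -0.09 in the cofactors and 0.01 in the turnover genes.

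The list of Myc-Max target genes held 32 tested genes, most of them for ribosome assembly, nucleolar function and metabolism. Of these, 0 passed by limma, 0 by edgeR and 4 by DESeq2. All 4 were lower (Nme1, Rrp12, Nolc1 and Polr1b). DESeq2 called 11.6% of all tested genes in either direction and 4.89% lower. An unadjusted p under 0.05 (limma) was found for 13 of the 32, against 23.4% of all tested genes. The log2 fold change was below 0 for 29 of the 32, with a median of -0.33 against -0.01 over all tested genes. Summed over the list, the normalised read counts were 157608, 187424 and 122128 in siNTC replicates 1, 2 and 3 and 122517, 121444 and 119960 in siMnt. siNTC replicate 3 lay with the siMnt libraries and the other controls stood above them. 25 of the 32 genes had their highest value in siNTC replicate 2, the library in which Myc was highest too. The share of all tested genes highest in that library was not counted. It also lay furthest out on the leading principal component (-52.3). Whether the listed genes follow Myc was not tested. Within replicate numbers 1, 2 and 3 the list median was -0.50, -0.64 and -0.04. With the block 8 members fell and 0 rose, against 6.56% of all tested genes lower, those 4 and Shmt2 among them, and all 5 are named after their values were seen. Without siNTC replicate 3, 16 fell and 1 rose, against 16.0% of all tested genes in either direction and 6.50% lower. The nucleolar proteins Ncl and Npm1, the most abundant of the list, did not pass, at -0.24 and -0.15 on the log2 scale with adjusted p of 0.486 and 0.738 by limma.

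**Figure D4:**
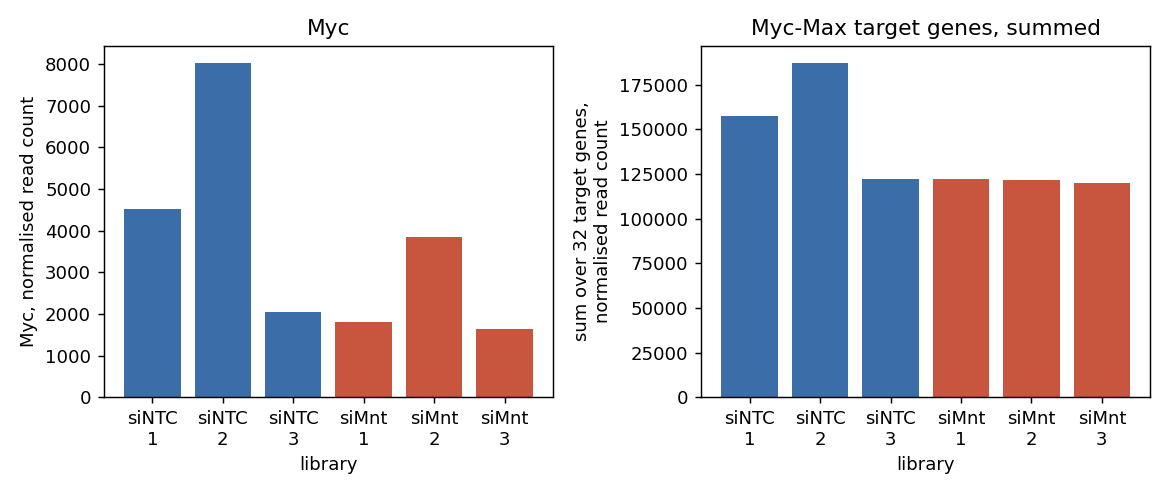
Normalised read counts of Myc (left, y axis) and of the 32 Myc-Max target genes summed (right, y axis) in each library (x axis; blue siNTC, red siMnt). The target sum is 187424 in siNTC replicate 2, where Myc is 8029, and 157608 in siNTC replicate 1, where Myc is 4508. It lies between 119960 and 122517 in siNTC replicate 3 and the 3 siMnt libraries, where Myc lies between 1631 and 3847. Among these, siMnt replicate 2 has the highest Myc, 3847, with a sum of 121444. The highest sum among them, 122517, is in siMnt replicate 1, where Myc is 1796.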

How the data were processed

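Per the labels, Trizol was used for RNA and standard Illumina protocols for the libraries. TopHat2 2.1.0, DESeq2 and build mm9 are named in the submitters' processing notes; read counter, annotation, strand setting and filters: not given in the sources used here. The authors deposited 1 table of normalised signal values for 14526 genes in 6 libraries. Each value was a read count divided by 1 factor per library: 99.7% of values above 0 returned whole reads within 0.05.

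Samples were grouped by title. Values were taken as log2(value + 1), the 1958 genes with a mean under 10 were left out, and limma 3.58.1 (R 4.3.3; empirical Bayes with a trend, no block) was fitted to all 6 libraries, with Benjamini-Hochberg adjustment over 12568 genes. Log2 fold changes understate the change of genes near 0. Nothing labels the replicates as separate cultures, so the spread behind each p-value may be technical. Same-numbered libraries deviated together (correlations over genes of 0.28, 0.50 and 0.35, other pairs -0.38 to 0.03), so values with the replicate number as a block are given where they change a call; the labels do not say what a number shares. Intervals for reads cover counting error only.

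Alternatives were pseudocounts, filters, scalings, no variance trend, the block, each library left out, and edgeR 4.0.16 and DESeq2 1.42.0 on recovered reads. Removal of GC and length trends (GENCODE M21, 98.8% of tested genes matched) was added after seeing the data. The members and lists were chosen with earlier results of these data known. Genes named are the 9 members; per list the 3 passing members with the smallest adjusted p, or else the 2 with the highest mean; and the 5 genes most like Mnt. Exceptions are said to be so.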

Additional observations from a re-analysis of the deposited data

How the results depend on the processing

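Replicate number (3 libraries a group) and the siNTC spread limit these results. The count of genes that passed was 494. It was 322 with a filter at a mean of 50, 306 without a variance trend, 1457 by DESeq2, 1998 with the replicate block, 1033 with GC and length trends removed and 2331 with both of the last. Leaving out 1 library it ran from 0 to 2012: 0 passed in limma when siNTC replicate 1, siMnt replicate 1 or siMnt replicate 2 was omitted (2193, 1816 and 1920 genes at an unadjusted p under 0.05; edgeR 0 each, DESeq2 710, 447 and 554). Mnt, outside the threshold in the reported fit, passed by DESeq2 (-0.98), with the block (-0.96), with GC and length trends removed (-1.06, also with the block), and without siNTC replicate 2 or siNTC replicate 3 (omissions of 1 library gave -1.19 to -0.77). Its level was 43.9% to 57.8% of siNTC in the omissions. Mycn passed by DESeq2 (0.99), with the block (0.96) and with GC and length trends removed and the block (0.93), and without siNTC replicate 3 (omissions gave 0.83 to 1.16). Myc passed with the block (-0.90), with the block and trends removed (-0.90), and without siNTC replicate 3 (omissions gave -1.42 to -0.44). Mxi1 lost its call with a filter at 50 (0.62), without a variance trend (0.62) and without siNTC replicate 1 or any 1 siMnt library (omissions gave 0.49 to 0.71). Max (-0.15 to 0.0091) and Mxd4 (-0.066 to 0.47) changed sign without siNTC replicate 2. The 6 partner lists, of 3, 17, 10, 14, 15 and 32 tested genes, together held 1 call. They held 0 without a variance trend, 8 by DESeq2, 14 with the block and 18 with the block and trends removed. In the omissions they held 0 to 23, highest without siNTC replicate 3. Calls outside the lists also grew in number. Genome-wide the share was 3.93% in the reported fit, 11.6% by DESeq2, 15.9% with the block and 16.0% without siNTC replicate 3. In the Myc-Max target list 8 of 32 genes were lower with the block and 16 of 32 without siNTC replicate 3. Over all tested genes 6.56% and 6.50% were lower in these settings. Whether the larger list counts are specific to the lists was not tested. The cause of these differences was not tested. The block changed no other network call.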

Other observations

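The E-box CACGTG was also counted before the start sites of the genes that changed. Of 253 genes that rose in siMnt and had a window of 250 bases, 38 held the motif, which is 15.0%. Of 127 genes that fell, 11 held it, which is 8.66%. Over 9926 tested genes with a window the share was 9.74%, and 5 of 26 Myc-Max target genes held it. These shares were computed after the list of changed genes was known, windows this short leave out most of a promoter, and no test was run.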
